A study of Mus musculus with 6 samples.

Results

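The genes described here encode 10 enzymes of inflammatory metabolism: Acod1 for itaconate, Nos2 and Gch1 for nitric oxide and its cofactor, Ptgs1, Ptgs2 and Ptges for prostaglandins, Ch25h for an oxysterol, Ido1 for tryptophan breakdown, Cmpk2 for pyrimidine nucleotides and Sod2 for superoxide removal. They were taken from 35856 genes with a matched transcript target and were chosen by name with their measured counts in view, compared between libraries labelled Mdm2 deleted and libraries labelled vehicle. The difference between these arms is therefore given as a description, with no test. All 10 genes were matched, and 9 passed the filter on low counts; Ido1 did not.

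The cells were labelled as Mdm2fl/flp53-/- T cell lymphoma, sarcoma and ear fibroblasts, where fl is a loxP-flanked allele and every group shares the loss of p53. They carried a retrovirus for CreERT2 with GFP, or GFP alone, and the labels do not give the vector of each library. 4-hydroxytamoxifen (4-OHT), which activates CreERT2, or ethanol vehicle was given for 6 h to the lymphoma and 48 h to the sarcoma and fibroblasts. Each combination of cell label and arm is 1 library of total RNA, 6 in all. None of them carries a label of 4-OHT on cells with GFP alone, so 4-OHT exposure and Mdm2 deletion cannot be told apart. The arm name deleted is taken here from the 4-OHT title and does not show that Mdm2 was removed. The lymphoma and sarcoma came from tumours of such mice in short-term culture, and the number of tumours or animals behind a library is not given in the labels.

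Many of these enzymes, though not the constantly made product of Ptgs1, are silent or low in resting cells. They are switched on by interferons, bacterial products and cytokines through STAT, IRF and NF-kB transcription factors. Their products act as signals or effectors: itaconate inhibits succinate dehydrogenase, nitric oxide damages microbes and relaxes vessels, prostaglandin E2 drives fever and pain, and 25-hydroxycholesterol restrains sterol synthesis and viral entry. Macrophages are the best known source of Acod1 and Nos2 products, while fibroblasts are a recognised source of prostaglandin E2.

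Depth lay between 26243064 and 37517726 estimated counts per library. Some values did not bear out the labels, so groups are called by their cell label and arm name throughout. Mdm2 stood at 30.5 to 31.1 CPM (counts-per-million, scaled by the trimmed mean of M-values, TMM) in libraries labelled deleted and at 28.0 to 28.5 CPM in those labelled vehicle, so its RNA was not lower where deletion is labelled (log2 fold change 0.13 ± 0.05, SE, 3 labelled pairs, edgeR adjusted p = 0.0539). This level sums all Mdm2 targets, and the loxP-flanked part was not counted apart. It therefore does not show whether that part was removed. Of 12 T cell markers, Cd3d, Cd3e, Cd247 and Cd2 had 0 counts in all 6 libraries, including those labelled lymphoma, while the collagen gene Col1a2 stood at 3358 to 5108 CPM in all 6. Whether the 6 libraries hold 3 cell types is therefore not shown by these values. The labelled pairs served as the replicates, and spread between them may be technical. Arm p-values below rest on this spread, which may not include variation between animals or tumours.

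Acod1 (ENSMUSG00000022126.6, chromosome 14, 103046977 to 103056573, GRCm38) encodes aconitate decarboxylase, which makes itaconate from the citric acid cycle intermediate cis-aconitate. Its estimated counts were 1074, 1041 and 987 in the libraries labelled fibroblasts, lymphoma and sarcoma deleted, and 10, 15 and 8 in the matching libraries labelled vehicle. In CPM these are 36.4, 39.1 and 35.7 against 0.351, 0.506 and 0.212. The arms were far apart and the 3 libraries of an arm were close. The ratio of deleted to vehicle was 104 (95% counting interval 56.2 to 217) in the pair labelled fibroblasts, 77.3 (46.6 to 139) in the pair labelled lymphoma and 168 (84.8 to 390) in the pair labelled sarcoma. The 3 intervals overlap, and their width comes from the few counts in the libraries labelled vehicle. Here, as for every gene in bulk RNA, more cells that express the gene and more RNA per cell cannot be told apart. Per length, Acod1 lay at percentiles 1.81 to 4.90 of the 15933 genes tested in libraries labelled vehicle and at percentiles 60.4 to 62.5 in those labelled deleted.

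The promoter of Acod1 is shown because the gene had one of the widest ratios of the group. It is the RefSeq window chr14:103046762-103047061 (GRCm38.p6, plus strand), 250 bases before to 50 after the annotated start, with capitals for an IRF core (AAGTGAAA, 63 to 56 bases before the start) and a TATA box (TATAAA).
Acod1: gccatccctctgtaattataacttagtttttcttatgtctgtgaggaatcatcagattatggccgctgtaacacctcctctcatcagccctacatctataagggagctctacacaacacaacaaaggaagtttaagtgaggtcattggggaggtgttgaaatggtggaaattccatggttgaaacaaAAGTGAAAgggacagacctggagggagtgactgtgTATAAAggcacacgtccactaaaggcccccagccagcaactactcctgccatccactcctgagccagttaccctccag

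Nos2 (ENSMUSG00000020826.8, chromosome 11, 78920787 to 78960254) encodes inducible nitric oxide synthase, which makes nitric oxide from arginine. It had 251, 266 and 262 counts in the libraries labelled fibroblasts, lymphoma and sarcoma deleted, and 3, 3 and 0 counts in those labelled vehicle. It was near the detection limit in every library labelled vehicle. The ratio was 80.8 (27.3 to 395) in the pair labelled fibroblasts and 98.7 (33.4 to 482) in the pair labelled lymphoma, and Nos2 was at least 119-fold higher in the pair labelled sarcoma, where 0 counts were taken to allow up to 3 in that library. Even so the level stayed low per length, 1.10 to 1.43 TPM (transcripts-per-million, a length-corrected level) in libraries labelled deleted. Gch1 (ENSMUSG00000037580.10, chromosome 14, 47153895 to 47189413) encodes GTP cyclohydrolase 1, the first enzyme of tetrahydrobiopterin synthesis, a cofactor that nitric oxide synthases need. Gch1 levels in the order fibroblasts, lymphoma, sarcoma were 8.31, 6.80 and 8.16 CPM where deletion is labelled, and 1.76, 1.82 and 2.18 CPM where vehicle is labelled. The arms did not overlap, with ratios of 4.73 (3.48 to 6.55), 3.73 (2.74 to 5.16) and 3.75 (2.90 to 4.89).

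The prostaglandin enzymes differed among themselves. Ptgs1 (ENSMUSG00000047250.13, chromosome 2, 36230426 to 36252272) encodes cyclooxygenase 1, the form most cells make constantly. In the same order it was at 85.1, 87.0 and 79.9 CPM where deletion is labelled and at 92.2, 96.3 and 98.2 CPM in those labelled vehicle. It was thus slightly lower where deletion is labelled, with ratios of 0.924 (0.874 to 0.976), 0.903 (0.855 to 0.955) and 0.813 (0.771 to 0.858). On the deposited TPM its arms overlapped, at 20.6 to 24.8 TPM in libraries labelled deleted and 24.2 to 25.6 TPM in those labelled vehicle.

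Ptgs2 (ENSMUSG00000032487.8, chromosome 1, 150100031 to 150108227) encodes cyclooxygenase 2, the inducible form. Its level was 95.3, 87.3 and 97.5 CPM where deletion is labelled (fibroblasts, lymphoma, sarcoma) and 53.3, 45.8 and 52.2 CPM in those labelled vehicle. Every library labelled deleted was above every library labelled vehicle, with ratios of 1.79 (1.68 to 1.90), 1.90 (1.78 to 2.04) and 1.87 (1.76 to 1.98). Ptges (ENSMUSG00000050737.13, chromosome 2, 30889471 to 30929863) encodes the microsomal prostaglandin E synthase that works beside cyclooxygenase 2. Its levels were 60.9, 57.2 and 58.7 CPM against 28.6, 28.2 and 33.1 CPM, with ratios of 2.13 (1.96 to 2.31), 2.03 (1.86 to 2.21) and 1.77 (1.65 to 1.91). The pair labelled sarcoma gave the lowest of the 3, from a higher level in its library labelled vehicle.

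The order of the cyclooxygenase genes turned between arms. On the full-length Ptgs2 target, the TPM ratio of Ptgs2 to Ptgs1 was 0.574, 0.472 and 0.527 in the libraries labelled fibroblasts, lymphoma and sarcoma vehicle, and 1.12, 1.00 and 1.22 in those labelled deleted. Ptgs1 was thus the more abundant where vehicle is labelled, and both were about equal, or Ptgs2 slightly ahead, where deletion is labelled. The full-length target was used because Ptgs2 has a second, 187-base target that was assigned 6.45 to 11.4 estimated counts in libraries labelled vehicle and 0 in those labelled deleted. Short as it is, that target made up 12.9 to 16.5% of the gene's summed TPM in libraries labelled vehicle. Summed over both targets, the ratio was 0.547 to 0.659 in libraries labelled vehicle, so the order was the same.

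**Figure D1:**
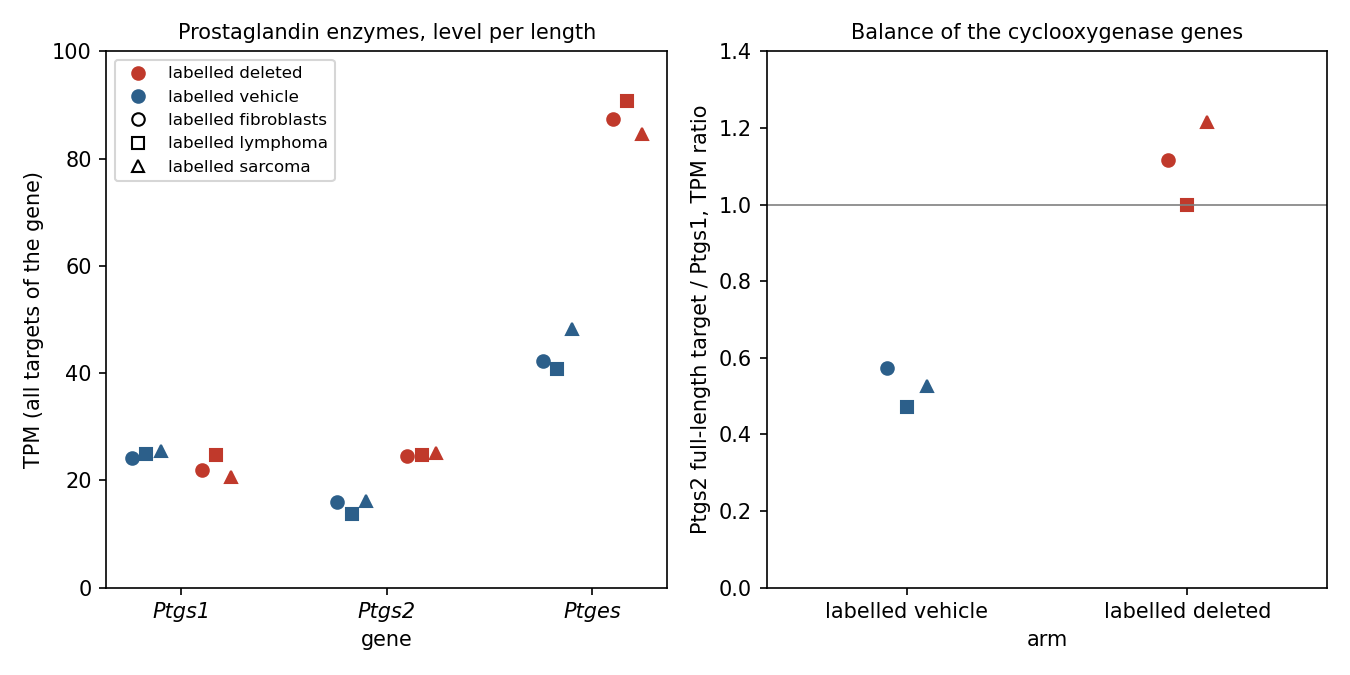
Left, TPM summed over all targets of Ptgs1, Ptgs2 and Ptges in each library; right, the TPM ratio of the full-length Ptgs2 target to Ptgs1, with a line at a ratio of 1. Each symbol is 1 library, coloured by labelled arm and shaped by cell label; the ratio lies at 0.472 to 0.574 in libraries labelled vehicle and at 1.00 to 1.22 in those labelled deleted.

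The promoters of this pair are shown because the genes encode the same reaction and differ in their direction here. Both are RefSeq windows on GRCm38.p6, plus strand, chr2:36230176-36230475 for Ptgs1 and chr1:150099781-150100080 for Ptgs2. Capitals mark the CRE core, the letters bound by CREB and ATF factors (TGACGT, here on the other strand as ACGTCA, 13 to 18 bases after the start). The Ptgs1 window held none of the 5 motifs searched.
Ptgs1: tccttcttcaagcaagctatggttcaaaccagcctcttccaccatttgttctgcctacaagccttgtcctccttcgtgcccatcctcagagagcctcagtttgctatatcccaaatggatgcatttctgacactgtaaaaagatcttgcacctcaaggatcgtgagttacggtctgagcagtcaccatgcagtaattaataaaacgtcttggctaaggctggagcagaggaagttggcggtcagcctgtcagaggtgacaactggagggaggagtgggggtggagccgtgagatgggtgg
Ptgs2: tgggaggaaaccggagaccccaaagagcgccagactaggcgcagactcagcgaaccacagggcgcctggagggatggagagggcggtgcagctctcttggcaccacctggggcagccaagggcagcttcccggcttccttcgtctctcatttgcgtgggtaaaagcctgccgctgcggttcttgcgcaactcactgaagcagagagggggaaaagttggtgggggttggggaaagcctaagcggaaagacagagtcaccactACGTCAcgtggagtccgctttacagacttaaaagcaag

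Ch25h (ENSMUSG00000050370.5, chromosome 19, 34473778 to 34475164) encodes cholesterol 25-hydroxylase. In the order fibroblasts, lymphoma, sarcoma it was at 8.82, 8.91 and 9.54 CPM where deletion is labelled and at 0.948, 0.878 and 0.982 CPM in those labelled vehicle. The ratios were 9.31 (6.25 to 14.4), 10.1 (6.76 to 15.9) and 9.71 (6.86 to 14.1). Spread between the labelled pairs was taken on log2(CPM + 0.5), not on the plain ratios. The SD of the log2 ratios on that scale was 0.05 for Ch25h, the same as for Ptgs2 (0.05). It was 0.17 for Gch1, 0.18 for Acod1 and 0.21 for Nos2. The added 0.5 is above or near the CPM of Acod1 and Nos2 in libraries labelled vehicle. It therefore narrows their spread, and their SDs cannot be ranked against those of the other genes. Plain ratios give no SD for Nos2, which had 0 counts in the library labelled sarcoma vehicle. In libraries labelled vehicle, Acod1 and Nos2 rest on fewer counts than Ch25h, and Gch1 rests on more. The part of counting error in these SDs was not tested. The window of Ch25h is shown for a palindromic CRE (TGACGTCA), in which the CRE core occurs on both strands between 61 and 54 bases before the start, and for a TATAAA match farther upstream. It is chr19:34475099-34475398, GRCm38.p6, minus strand.
Ch25h: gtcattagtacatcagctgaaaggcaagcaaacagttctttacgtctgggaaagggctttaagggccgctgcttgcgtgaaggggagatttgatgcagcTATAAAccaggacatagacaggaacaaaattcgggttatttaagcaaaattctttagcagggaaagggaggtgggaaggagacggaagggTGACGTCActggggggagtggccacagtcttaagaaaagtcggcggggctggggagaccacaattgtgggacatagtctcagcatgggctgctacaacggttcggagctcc

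Ido1 (ENSMUSG00000031551.12, chromosome 8, 24584136 to 24597009) encodes indoleamine 2,3-dioxygenase, which opens the kynurenine pathway of tryptophan breakdown and is a classical target of interferon gamma in many cells. It had 2 counts in the library labelled lymphoma deleted and 0 in the other 5 libraries. A count of 0 allows up to 3 counts, which is 0.0797 to 0.113 CPM depending on the library, so a difference in Ido1 was not detectable at this depth. Ido1 thus stood apart from the other 9 genes, each of which had at least 181 counts in every library labelled deleted.

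Cmpk2 (ENSMUSG00000020638.8, chromosome 12, 26469204 to 26479837) encodes a mitochondrial UMP/CMP kinase that supplies CTP and related nucleotides. Levels where deletion is labelled were 112, 111 and 117 CPM (same order), beside 5.76, 6.28 and 6.85 CPM in those labelled vehicle. The ratios were 19.4 (16.6 to 22.8), 17.6 (15.2 to 20.6) and 17.1 (15.02 to 19.4), with overlapping intervals. Sod2 (ENSMUSG00000006818.5, chromosome 17, 13006846 to 13040063) encodes the manganese superoxide dismutase of mitochondria, a widely used NF-kB target. Its levels were 126, 127 and 126 CPM against 51.6, 49.6 and 55.9 CPM. Its level was almost the same in the 3 libraries labelled deleted (126 ± 0.278 CPM, SD, n = 3), and the ratios of 2.44 (2.30 to 2.60), 2.55 (2.40 to 2.72) and 2.26 (2.14 to 2.39) differed mainly through the libraries labelled vehicle (52.4 ± 3.22 CPM). The window of Sod2 is shown because it held both a kB and a GAS match, the latter being the site form bound by STAT dimers. It is chr17:13007589-13007888, GRCm38.p6, plus strand, with capitals for TTCCCAGAA (GAS) and GGGGTTCCCC (kB).
Sod2: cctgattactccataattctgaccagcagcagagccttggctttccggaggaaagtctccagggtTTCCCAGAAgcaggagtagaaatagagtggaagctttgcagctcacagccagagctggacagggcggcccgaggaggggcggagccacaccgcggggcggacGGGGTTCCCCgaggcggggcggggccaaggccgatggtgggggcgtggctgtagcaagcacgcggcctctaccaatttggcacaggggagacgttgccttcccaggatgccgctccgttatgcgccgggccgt

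Across the windows, few motifs were shared. Windows for 8 of the 10 genes were used here. The searches covered both strands for the IRF core AANNGAAA, the GAS site TTCNNNGAA, the CRE core TGACGT, the TATA box TATAAA and the kB consensus. The IRF core occurred in 1 of the 8 windows (Acod1) and in 23.9% of all 32851 windows of the same length. GAS occurred in 1 (Sod2) and in 8.30% of all windows, the CRE core in 2 (Ptgs2 and Ch25h) and in 7.51%, and TATAAA in 3 (Acod1, Ch25h and Gch1) and in 13.6%. The kB consensus occurred in 2 (Gch1 and Sod2) and in 8.46%. Matches may overlap one another, and they describe letters in a window of 300 bases, not bound sites.

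**Figure D2:**
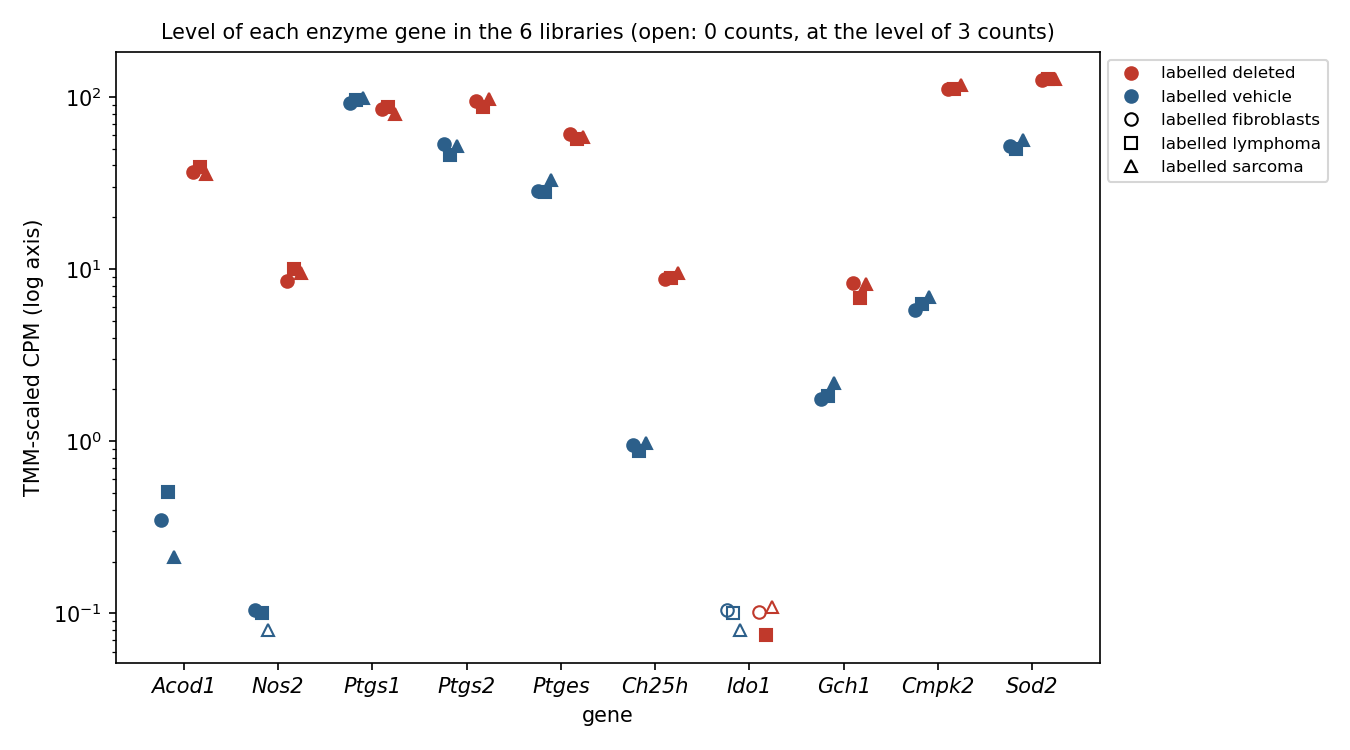
TMM-scaled CPM of each of the 10 genes on a log axis, 1 symbol per library, coloured by labelled arm and shaped by cell label; an open symbol is a library with 0 counts, drawn at the level of 3 counts. The arms separate for the 9 genes other than Ido1, downward for Ptgs1 alone.

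Counted together, 8 of the 10 genes had all 3 libraries labelled deleted above all 3 labelled vehicle, and Ptgs1 had them below. Over all 15933 genes tested, 27.7% lay wholly above and 27.8% wholly below, so separation as such was common. A difference of at least 2-fold in all 3 labelled pairs, on log2(CPM + 0.5), was found for 6 of the 10 (Acod1, Nos2, Ch25h, Gch1, Cmpk2 and Sod2) and for 2.60% of all genes tested. Just inside that limit stood Sod2, whose log2 ratios were 1.17 to 1.34, and just outside it Ptges, at 0.82 to 1.08. These counts follow from how the genes were listed and are given without a test. The fitted log2 fold changes ran from -0.19 ± 0.05 (SE) for Ptgs1 through 0.89 ± 0.04 for Ptgs2, 0.98 ± 0.05 for Ptges, 1.27 ± 0.05 for Sod2, 2.01 ± 0.12 for Gch1, 3.27 ± 0.12 for Ch25h and 4.16 ± 0.05 for Cmpk2 to 6.73 ± 0.13 for Acod1. That of Nos2, 7.12 ± 0.28, depends on the prior count, since 1 library labelled vehicle had none. The median of the 9 was 2.01, beside 0.02 over all genes tested.

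**Figure D3:**
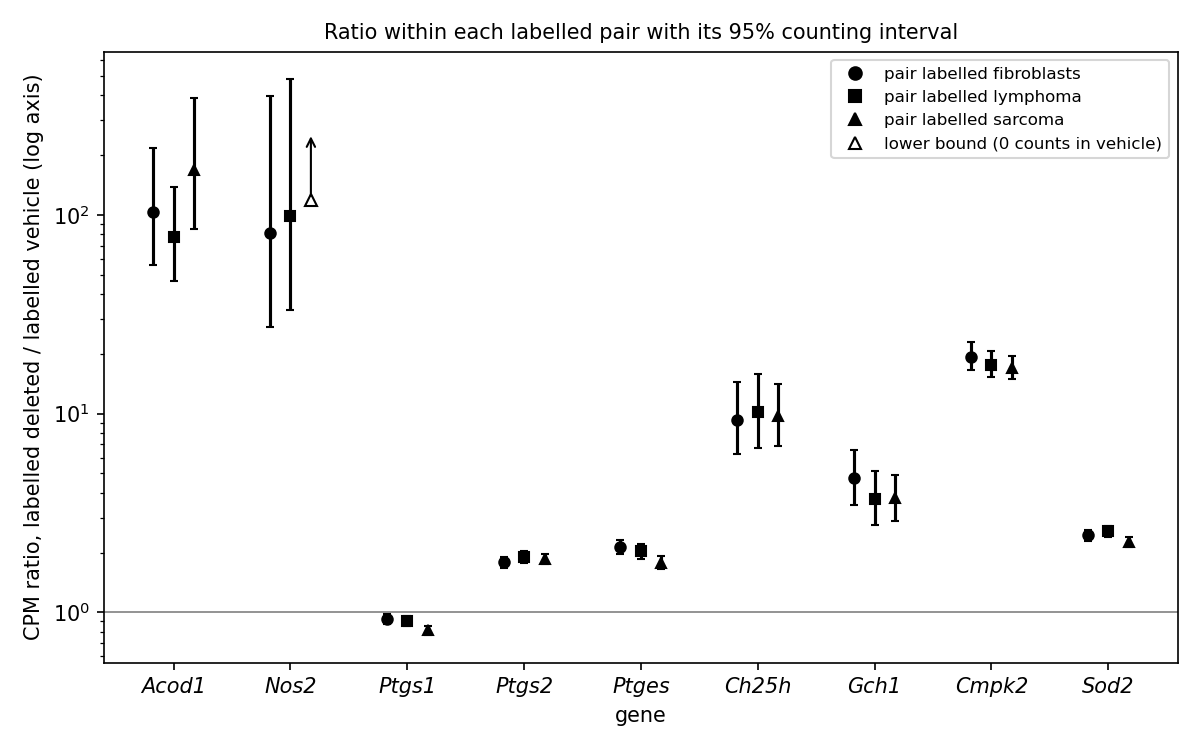
Ratio of CPM in the library labelled deleted to the library labelled vehicle within each labelled pair, on a log axis, with 95% counting intervals (Clopper-Pearson); the open triangle with an arrow is the lower bound of 119 for Nos2 in the pair labelled sarcoma. Ptgs1 lies below 1 in all 3 pairs, and the intervals are widest for Acod1 and Nos2.

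Compared per length, the order of the genes changed with the arm. In libraries labelled deleted it was Sod2 (106 to 118 TPM), Ptges (84.6 to 90.8), Cmpk2 (40.1 to 44.1), Ptgs2 (24.5 to 25.0), Ptgs1 (20.6 to 24.8), Acod1 (11.6 to 14.1), Gch1 (5.70 to 6.30), Ch25h (5.11 to 5.71), Nos2 and Ido1. The ranges of Ptgs2 and Ptgs1, and of Gch1 and Ch25h, overlapped there, and the other neighbours in this order did not. In libraries labelled vehicle Sod2 (42.2 to 47.8 TPM) and Ptges (40.8 to 48.2) overlapped, followed by Ptgs1 (24.2 to 25.6), Ptgs2 (13.7 to 16.1), Cmpk2 (2.11 to 2.49), Gch1 (1.36 to 1.67), Ch25h (0.512 to 0.577) and Acod1 (0.0699 to 0.166). Nos2 (0 to 0.0139) and Ido1 (0) overlapped at the bottom. Sod2, Ptges and both cyclooxygenase genes were therefore readily measured in the libraries labelled vehicle, whereas Acod1, Nos2 and Ido1 were close to absent from them.

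A comparison that the listing did not use is the one between cell labels, tested with the arm as a block. Between the labels fibroblasts, lymphoma and sarcoma, 0 of 9 members passed (edgeR adjusted p from 0.389 for Ptgs2 to 0.947 for Ch25h), where 0.308% of all genes tested did. At an unadjusted p under 0.05 edgeR gave 1 (Ptgs2), and DESeq2 and limma gave 0 each, also after adjustment. For Acod1, Nos2, Ch25h and Gch1, DESeq2 gave no adjusted p. On CPM, Ptgs2 was the lowest in the libraries labelled lymphoma in both arms, by -0.17 on the log2 scale against fibroblasts (95% interval -0.28 to -0.06) and by 0.17 against sarcoma (0.06 to 0.28, sarcoma minus lymphoma). On deposited TPM this order did not hold where deletion is labelled, with 24.8 TPM in the library labelled lymphoma and 24.5 in that labelled fibroblasts. Over its 8 alternatives, which include DESeq2 and limma, the adjusted p of Ptgs2 ranged from 0.124 to 1. The widest difference was that of Gch1, sarcoma minus lymphoma, at 0.27 (-0.05 to 0.58). For Acod1 the 3 label differences lay between -0.17 and 0.12, with interval bounds from -0.40 to 0.35. Differences inside these bounds were not detectable with 2 libraries per label. Whether the arm difference itself varied with the label, or with the labelled 6 h or 48 h of exposure, could not be tested with 1 library per combination.

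Genes around these enzymes came from 7 lists of 167 genes, none of them a member, of which 128 were tested between the arms. With edgeR's test adjusted over all genes, 36 of these rose and 48 fell, which is 28.1% and 37.5% of those tested, beside 25.0% higher and 24.6% lower over all genes. On log2(TPM + 1) with limma the counts were 17 and 12. The median log2 fold change of the 128 was -0.06, beside 0.02 over all genes tested. Among the genes named below by rule, Asl, Abca1, Il4i1, Kyat1, Cyp1b1, Txnrd1 and Txnrd2 did not pass on log2(TPM + 1). Nor did Idh1, Idh3a, Pts, Insig1, Nr1h2 and Nme3. Abcg1 and Cybb were not tested on that scale, which required at least 1 TPM in a library. The log2 fold change of Il4i1 was 0.24 there in place of 1.20, and that of Kyat1 was -0.37 in place of -0.76.

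Around itaconate, most genes of the citrate cycle stood lower where Acod1 was higher. Of 21 genes, all tested, 14 fell, 1 rose and 6 did not pass, with a median of -0.21. Clybl, a mitochondrial lyase that degrades an itaconate-derived metabolite, was at 18.5 ± 1.31 CPM under the vehicle label and fell to 11.3 ± 0.846 (SD over the 3 libraries of an arm, as for all such values here; edgeR adjusted p = 7.94e-06). Idh2, the mitochondrial NADP-dependent isocitrate dehydrogenase, fell from 291 to 186 CPM (log2 fold change -0.65 ± 0.05). Idh1, its cytosolic relative, fell by 0.69 on counts, but on deposited TPM it stood at 93.3 in libraries labelled deleted and 84.8 in those labelled vehicle, the opposite order. The gene that rose was Idh3a (0.18 ± 0.05), a call that was lost without the pair labelled fibroblasts, with DESeq2 and on TPM (adjusted p over its 8 alternatives 0.00688 to 0.125).

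Around nitric oxide, genes changed in both directions. Of 22 genes, 16 were tested, 5 rose and 6 fell, with a median of -0.07. Ass1, which remakes the arginine precursor from citrulline, rose from 124 ± 9.61 to 273 ± 5.02 CPM (edgeR adjusted p = 4.51e-09), and the arginine transporter Slc7a2 rose from 4.44 ± 0.193 to 15.7 ± 0.626 CPM (edgeR adjusted p = 7.21e-09). Arg2, a mitochondrial arginase that competes for the same substrate, rose from 1.63 to 7.02 CPM (log2 fold change 2.08 ± 0.13). Ddah2, which clears methylated arginines that inhibit nitric oxide synthases, fell by 0.57, Asl, the enzyme after Ass1, fell by 0.30, and Pts, the enzyme after Gch1, fell by 0.36. The call on Pts was lost without the pair labelled lymphoma, with DESeq2 and on TPM (adjusted p over its 8 alternatives 5.47e-05 to 0.0911).

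Around the prostaglandins, both named transporters rose, and receptor genes changed in both directions. Of 32 genes, 18 were tested, 7 rose and 6 fell, with a median of -0.08. Slco2a1, the prostaglandin uptake carrier, rose from 31.9 ± 1.13 to 81.0 ± 6.06 CPM (edgeR adjusted p = 2.06e-09), and Abcc4, an exporter, rose from 22.7 to 42.7 CPM (log2 fold change 0.91 ± 0.05). Ptgds, a prostaglandin D synthase, rose from 0.0716 to 1.15 CPM, a low level. Of the receptors, Ptgir, for prostacyclin, rose from 12.7 to 21.8 CPM (log2 fold change 0.78 ± 0.06), and Ptger2, for prostaglandin E2, rose from 0.0729 to 0.405 CPM, a low level; both are named after their values were seen. The prostaglandin F receptor Ptgfr fell from 61.0 ± 2.37 to 26.9 ± 1.36 CPM (edgeR adjusted p = 1.49e-09), the E receptor gene Ptger4 fell by 0.50, and Alox5ap, the helper of leukotriene synthesis, fell from 2.85 to 1.15 CPM.

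Genes of the oxysterol list mostly did not pass: of 19, 16 were tested, 3 rose and 4 fell, with a median of 0.03. The sterol exporters Abcg1 (1.05 ± 0.15) and Abca1 (0.37 ± 0.05) and the esterifying enzyme Soat1 (0.71 ± 0.04) rose, and Cyp39a1, an oxysterol hydroxylase, fell by 0.92. Insig1, which retains the sterol sensor in the endoplasmic reticulum, and Nr1h2, a receptor for oxysterols, fell by 0.15 and 0.18. The calls on Insig1 and Nr1h2 were lost with DESeq2 and on TPM, and that on Nr1h2 also without the pair labelled lymphoma (adjusted p over 8 alternatives each, 0.00261 to 0.383 and 0.00294 to 0.49).

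Around Ido1, the pathway's own enzymes were largely not expressed. Of 19 genes, 10 were tested, and the 9 left out include Ido2, Tdo2, Kynu and Kmo. Of the 10, 7 rose and 2 fell, with a median of 0.30. Those named are Il4i1, a secreted amino acid oxidase (0.964 to 2.21 CPM, SD 0.720 where deletion is labelled), Ahr, the receptor for kynurenine and other ligands (0.71 ± 0.07), and Wars, the tryptophan tRNA synthetase and an interferon-induced gene (0.65 ± 0.05). Kyat1, a kynurenine aminotransferase, fell by 0.76 and Cyp1b1, a target of Ahr, fell by 0.26.

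The nucleotide list held Rsad2, whose change was the largest of the 128 after that of Cybb, a gene at low counts. Of 25 genes, all tested, 6 rose and 7 fell, with a median of -0.02. Rsad2, which turns CTP into an antiviral chain terminator, rose from 6.21 ± 0.951 to 192 ± 3.36 CPM (log2 fold change 4.94 ± 0.07, edgeR adjusted p = 2.25e-13). Samhd1, which breaks down deoxynucleotides, rose from 70.4 to 174 CPM and Upp1, a uridine phosphorylase, rose from 3.25 to 8.71 CPM. Cda, a cytidine deaminase, fell by 0.59, and the nucleoside diphosphate kinases Nme4 and Nme3 fell by 0.58 and 0.36, the latter not passing with DESeq2 or on TPM (adjusted p over 8 alternatives 5.74e-05 to 0.0627).

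Around Sod2, of 29 genes for superoxide and peroxide 22 were tested, 7 rose and 9 fell, with a median of -0.06. The other dismutases differed from each other: Sod3, the extracellular form, rose from 1.30 ± 0.457 to 3.46 ± 0.301 CPM (edgeR adjusted p = 5.89e-05) and Sod1, the cytosolic form, fell by 0.28 (edgeR adjusted p = 0.000541; named for its family after its value was seen). Cybb, the catalytic subunit of the phagocyte oxidase, rose from 0.0266 to 1.94 CPM, and 2 of the libraries labelled vehicle had no count of it. Txnrd1, a thioredoxin reductase, rose by 0.28, while Txnrd2 and Prdx4, a peroxiredoxin of the endoplasmic reticulum, fell by 0.49 and 0.43. Gpx7 fell by 0.33, a call lost without the pair labelled lymphoma, without the pair labelled sarcoma and with DESeq2 (adjusted p over 8 alternatives 0.00448 to 0.235).

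**Figure D4:**
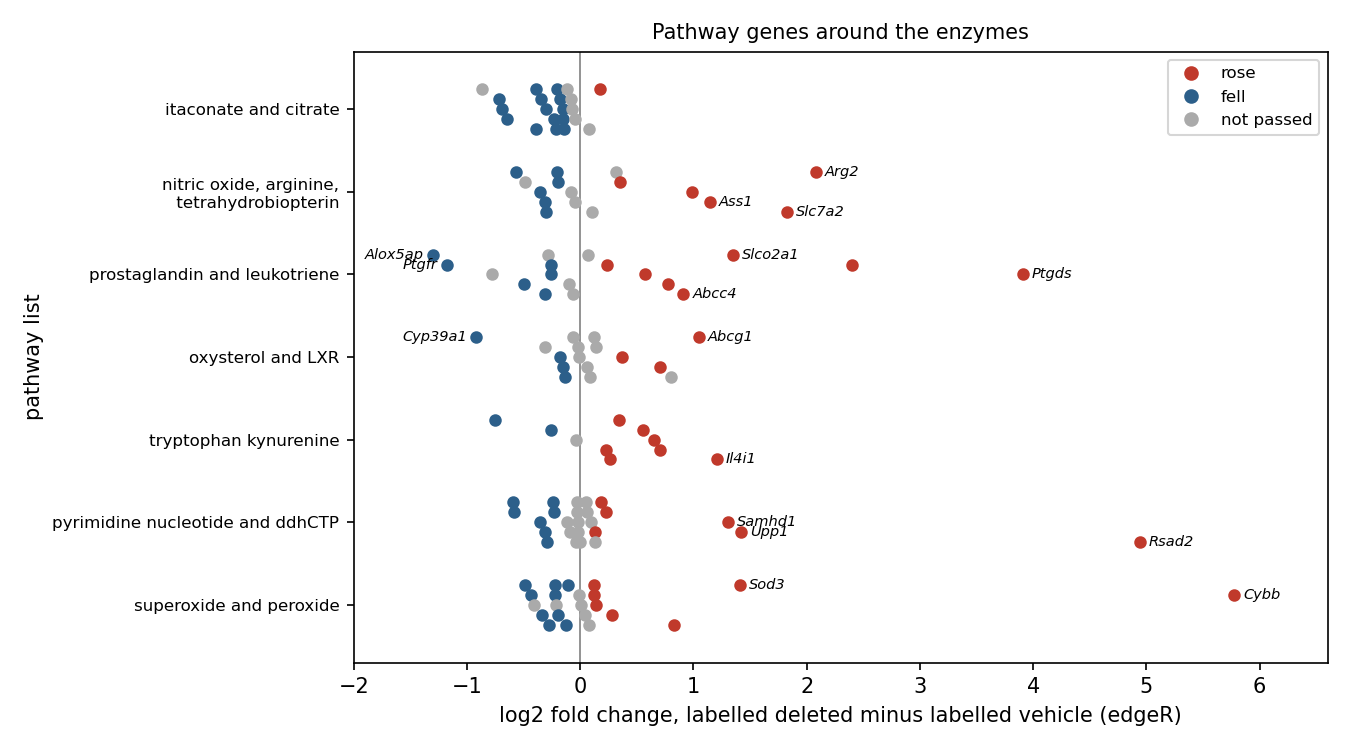
Fitted log2 fold change (edgeR, labelled deleted minus labelled vehicle) of the 128 tested pathway genes, 1 point per gene, in rows by list and coloured by whether the gene rose, fell or did not pass at an adjusted p of 0.05; vertical offsets only separate points. In the itaconate and citrate row 14 genes fell and 1 rose, and every other row also holds genes that fell. The points farthest to the left are Alox5ap (-1.30) and Ptgfr (-1.18) in the prostaglandin row. A few points lie far to the right, such as Rsad2 at 4.94.

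Because Acod1, Nos2 and Cybb are best known from macrophages, markers of other cells were set beside them. The 16 macrophage and myeloid markers summed to 27.4 to 31.0 CPM in libraries labelled deleted and 26.7 to 28.5 CPM in those labelled vehicle. Most of that was Cd14, at 18.0 to 20.1 against 21.7 to 22.9 CPM, lower where deletion is labelled. Cd68, the next most abundant, was higher there in all 3 pairs, at 6.05 to 7.30 against 4.35 to 4.97 CPM (log2 fold change 0.48, edgeR adjusted p = 0.00165). Csf1r was higher as well, at 0.489 to 0.746 against 0.212 to 0.316 CPM (log2 fold change 1.30, edgeR adjusted p = 0.0057). Fcgr1, Aif1 and Cx3cr1 had 0 counts in all 6 libraries, and Ptprc, the pan-leukocyte gene, reached at most 0.506 CPM, Adgre1 0.108 and Spi1 0.0722, each in the library labelled sarcoma deleted. Itgax (0.509 to 0.903 CPM against 0) and Itgam (0.542 to 0.984 against 0 to 0.0266 CPM) stood higher in libraries labelled deleted, at low levels. Sums of 12 T cell markers were 3.76 to 4.30 against 1.96 to 2.23 CPM, nearly all of it Lck, of 7 endothelial markers 1.70 to 2.24 against 0.574 to 0.717, of 6 epithelial markers, led by Krt18, 23.7 to 25.8 against 9.05 to 10.1, and of 7 skeletal muscle markers, led by Des, 0.339 to 0.526 against 0.169 to 0.292. The 12 mesenchymal markers summed to 14039 to 14262 CPM in libraries labelled deleted and 21668 to 22120 CPM in those labelled vehicle. The part of these shifts in the levels of the enzymes was not tested.

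The genes with the most alike pattern over the 6 libraries were found by the root mean square difference of log2(CPM + 0.5), centred on each gene's mean, among 10856 or 10857 candidates whose mean CPM was 5 or more. For Acod1 these were Gbp5 (0.24) and Slfn2 (0.31), for Nos2 Ifi44 (0.11) and Oas1a (0.12), for Cmpk2 Iigp1 (0.09) and Gbp2 (0.10) and for Ch25h Gpnmb (0.03). For Gch1 they were Gem (0.06) and Cxcl1 (0.09), for Sod2 Dennd6b (0.02) and Shisa5 (0.03), for Ptges Rnf19b (0.03) and Pttg1 (0.04), for Ptgs2 H2-M3 and 1110008P14Rik (0.06 each) and for Ptgs1 Polr3d (0.01) and Chrac1 (0.02). The 6 points share 2 arms, so a similar step between arms is enough for a small value. For Nos2 and Acod1 the value also depends on the pseudocount of 0.5, which is above or near their levels in libraries labelled vehicle.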

How the data were processed

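Estimated counts and TPM per transcript were deposited by the authors in 1 file per library, and the submitters' processing notes name kallisto 0.43.0 and the build GRCm38. The transcript set and the strand setting are not given in the sources used here, so reads of overlapping antisense genes cannot be told apart. The 76055 targets were joined to GENCODE M21 (GRCm38), where 75049 matched, and unmatched targets held 0.393 to 0.410% of counts. Every target of the 10 genes had exactly the coding length, so reads outside coding sequence were not counted: 669 of 5861 transcript bases for Sod2, for example. Estimated counts were summed per gene and rounded.

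The members, lists and tests were chosen with earlier results of these data known. edgeR 4.0.16 (quasi-likelihood, two-sided, filterByExpr by arm, then TMM, Benjamini-Hochberg adjusted p under 0.05 over 15933 genes) was fitted to all 6 libraries with cell label and arm as terms. The arm test had 2 residual and 9.23 prior degrees of freedom, and each SE is the absolute log2 fold change divided by the square root of F. The pairing of libraries comes from the cell labels. Ratios within pairs carry 95% Clopper-Pearson intervals, which like the limit of 3 counts cover counting error only. Pathway genes were named by a rule: up to 3 that rose and 3 that fell per list with the largest change, at least 1 CPM in an arm and the same direction in all 3 pairs. Prxl2b was matched through its older symbol. Promoter windows are from RefSeq (GRCm38.p6). The fit was tested on simulated data. Alternatives used DESeq2 1.42.0 and limma 3.58.1 on log2(TPM + 1), with R 4.3.3, Python 3.11.15, pandas 2.3.3 and matplotlib 3.10.9. One gene with a pattern like that of Ch25h is not reported here.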

Additional observations from a re-analysis of the deposited data

How the results depend on the processing

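Among the counts for the members, the 8 that were higher with arms not overlapping stayed 8 under DESeq2 size factors, plain library totals, deposited TPM and without each labelled pair in turn. The 1 that was lower (Ptgs1) became 0 on deposited TPM, where its arms overlapped, and stayed 1 under the others. The count of members called between cell labels was 0 under every alternative run, although DESeq2 gave no adjusted p for Acod1, Nos2, Ch25h and Gch1. The pathway counts of 36 risen and 48 fallen became 17 and 12 with limma on log2(TPM + 1), on a scale that compresses low genes; the cause was not tested. They were 26 and 35 with DESeq2, 33 and 53 without the filter on low counts, and 30 to 36 and 38 to 49 without each pair in turn. Without the replicate block, that is without the cell label as a term, they were 34 and 47, and members called between labels without the arm as a block remained 0. Of the named pathway genes under each alternative, 286 values stayed on their side of the threshold, 23 no longer passed, and 1 was reversed, Idh1 at 0.13 on log2(TPM + 1). Over all genes, 3981 higher and 3920 lower calls (50.4% higher) became 2541 and 2488 with DESeq2 and 1438 and 855 (62.7% higher) with limma on TPM. Calls between labels over all genes, 49 with all libraries, were 453 without the filter, 508 without the pair labelled fibroblasts, 84 without lymphoma, 20 without sarcoma, 1 with limma and 0 without the arm as a block. On log2(TPM + 0.5), ratios of Acod1 (4.40 in place of 5.47) and Nos2 (1.78 in place of 4.11) are smaller, since the pseudocount exceeds their TPM in libraries labelled vehicle. Depth limits Nos2, Acod1 and Ido1 in libraries labelled vehicle, where each had 0 to 15 counts per library.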

Other observations

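The chromosomal neighbours of the 9 measured enzymes were examined after their values were seen. Among the nearest tested protein-coding genes on each side, 18 in all, 8 rose and 4 fell by edgeR's adjusted test, beside 25.0% higher and 24.6% lower over all genes tested. Rsad2 (chromosome 12, 26442746 to 26456452, minus strand) lies beside Cmpk2 on the opposite strand, with 12.8 kb between the annotated starts, and went from 6.21 to 192 CPM while Cmpk2 went from 6.30 to 113 CPM. Lgals9, which encodes the lectin galectin 9, lies 2.72 kb beyond the end of Nos2 and rose from 27.2 to 113 CPM (log2 fold change 2.05). Fas, the death receptor gene, lies 146 kb from Ch25h and rose from 6.68 to 22.2 CPM (1.73). By contrast Pla2g4a, which releases the arachidonic acid that cyclooxygenases use and lies beside Ptgs2 on the opposite strand with 139 kb between starts, stood at 78.7 against 84.4 CPM and did not pass (edgeR adjusted p = 0.0918).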
